A study of Mus musculus with 10 samples.

Results

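The 54 genes described here encode the machinery that copies DNA in S phase. They were matched by gene symbol from a list drawn up with earlier results of these data known, and all 54 were found among the 20579 genes of the deposited table. They cover 10 roles: the origin recognition complex, licensing factors, the MCM2-7 helicase, helicase activation, the sliding clamp and its loader, polymerases and primase, single-strand binding and Okazaki fragment processing, nucleotide supply, chromatin and histone supply, and fork protection and repair. RNA was sequenced from cells with green fluorescent protein expressed under the Hopx promoter, sorted from mouse intestine at embryonic day 18.5. The mice were of the mixed strain C57BL6/J / 129S4. Of the 10 libraries, 5 came from p57KO embryos, which lack the cyclin-dependent kinase inhibitor p57Kip2, and 5 from p57WT embryos, with no other agent or allele named for either genotype beyond the shared Hopx reporter. The cell type label is Hopx+ intestinal stem cells, and the reporter marks any cell in which the Hopx promoter is active. The design names 5 intestines per genotype, so each library was taken as 1 intestine from dissociated crypts. No animal identifiers were given, so p-values measure the spread between these libraries.

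Replication starts when the origin recognition complex binds DNA and, with CDC6 and CDT1, loads the ring of MCM2 to MCM7 in G1 phase, a step called licensing. Geminin binds CDT1 and blocks a second round of loading in the same cycle. CDC45, the GINS complex and MCM10 then activate the helicase, polymerase alpha with primase lays down primers, and polymerases delta and epsilon extend them on the PCNA clamp, which replication factor C loads. Many of these genes are transcribed under E2F factors at the entry into S phase. p57Kip2 is an inhibitor of the cyclin-dependent kinases that drive this entry, and the adult intestinal crypt is known for its rapid cell division.

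Because E2F factors are known to act at many of these genes, the sequence before the start of 4 members is shown, with matches to the searched E2F motif in capitals. Sequences are from RefSeq promoter windows on GRCm38.p6, each read 5′ to 3′ on the gene's strand and ending before the annotated start. Mcm5 encodes a helicase subunit and lies on the plus strand (chr8:75109336-75109387), Mcm6 another subunit on the minus strand (chr1:128359725-128359835), Orc3 an origin recognition subunit on the minus strand (chr4:34614956-34615003) and Pola1 the catalytic subunit of polymerase alpha on the minus strand (chrX:93632266-93632313). The last line is Ccnb2, a mitotic cyclin on the minus strand (chr9:70421555-70421741), shown for contrast, with its CCAAT and TTTGAA matches in capitals.
Mcm5: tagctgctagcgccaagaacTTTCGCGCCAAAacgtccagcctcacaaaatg
Mcm6: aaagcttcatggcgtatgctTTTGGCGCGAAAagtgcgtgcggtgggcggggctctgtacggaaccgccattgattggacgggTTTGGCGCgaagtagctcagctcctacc
Orc3: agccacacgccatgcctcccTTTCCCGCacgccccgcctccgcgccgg
Pola1: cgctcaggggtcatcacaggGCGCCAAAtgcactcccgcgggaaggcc
Ccnb2: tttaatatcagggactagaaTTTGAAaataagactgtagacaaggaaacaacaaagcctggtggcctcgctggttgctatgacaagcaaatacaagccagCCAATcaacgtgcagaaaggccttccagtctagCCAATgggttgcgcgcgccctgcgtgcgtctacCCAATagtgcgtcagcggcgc

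The E2F motif was searched on both strands as TTTCCCGC, TTTGGCGC, TTTCGCGC or TTTGCCGC in windows from 250 bases before to 50 bases after each start. Of the members, 44 matched the promoter table, with 53 windows. The motif was in 30.2% of member windows and in 2.26% of all 32851 windows. A CCAAT box (CCAAT, both strands) was in 54.7% of member windows and 37.4% of all windows, and the cell cycle homology region (TTTGAA, both strands) was in 9.43% and 17.9%. In the windows of 26 mitosis genes the shares were 3.70% for E2F, 85.2% for CCAAT and 74.1% for TTTGAA. No test of these shares was made, the windows reach past the start, and a match is a description of letters, not a bound site. Among the 16 members with an E2F match, 1 was higher and 2 were lower in p57KO, with a median log2 fold change of -0.02. Among the 28 without one, 4 were higher and 1 was lower, with a median of 0.34. Among the 10 not in the promoter table, 1 was higher and 1 lower, with a median of 0.30. Over all genes tested 19.3% were higher and 17.2% lower, and whether the groups differ was not tested.

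Total counts per library ranged from 8037887 to 26809231, and a count of 3 was worth 0.105 to 0.392 CPM, the unit of level used here, in which counts are brought to 1 library size with TMM factors (trimmed mean of M values). Intervals cover the spread between libraries as edgeR estimates it. The knocked-out gene Cdkn1c was at 0.153 to 2.06 CPM in the p57KO and 151 to 458 CPM in the p57WT libraries, so the genotype labels held in all 10. The libraries also differed in other cell types. Summed smooth muscle markers were at 4765 to 32334 CPM in p57KO and 49257 to 98460.4 CPM in p57WT (10 of 10 tested lower), and summed epithelial markers at 9356 to 17918 and 3291 to 7935 CPM (14 of 18 higher). Hopx itself was at 127 to 199 CPM in p57KO and 60.4 to 78.1 CPM in p57WT, and the sum of 9 crypt stem cell markers that include it was 781 to 991 and 879 to 1375 CPM (1 higher and 2 lower). Leukocyte markers (9 of 9 tested higher) summed to 3133 CPM in p57KO 2 and to 63.7 to 425 CPM in the other p57KO libraries, against 12.4 to 92.6 CPM in p57WT. Fibroblast markers (7 of 7 tested lower) summed to 128 to 1344 CPM in p57KO and 2794 to 9596 CPM in p57WT, and erythroid markers (6 of 8 tested higher) to 101 to 1147 and 3.63 to 82.3 CPM. Of the neutrophil markers 2 of 3 tested were higher, of the enteric neuron and glia markers 2 of 7 were lower, and of 3 endothelial markers 0 were called by edgeR. Their part in the results was not tested. Each library carries a label number, 607 for p57KO 1, p57KO 2 and p57WT 1, 608 for p57KO 3 to 5, and 740 for p57WT 2 to 5. No source used here says what it stands for, and outside 607 it cannot be told apart from genotype. The share of counts on ribosomal RNA repeats was over 5% in p57KO 5 and in p57WT 1, 3, 4 and 5 (9.47% to 17.0%) and at most 0.435% in the other 5 libraries. In bulk RNA, fewer cycling cells and less RNA per cell cannot be told apart.

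The comparison asks how replication genes differ without p57Kip2. They did not move as one block. Genes for geminin, the small RPA subunit, the histone mRNA binding protein, 2 clamp loader subunits and 1 origin recognition subunit were higher in p57KO, while genes for CDT1 and for large or accessory subunits of polymerases alpha, delta and epsilon were lower. By edgeR's quasi-likelihood test, with adjustment over the 16710 genes tested and a threshold of 0.05, 6 members were higher and 4 lower, and 44 were not called. All 54 members passed the expression filter. Over all genes tested 19.3% were higher and 17.2% lower, so 10 of 54 members (18.5%) were called against 36.5% of all genes. The sign was positive for 36 members and negative for 18, and the median log2 fold change of p57KO over p57WT was 0.26, beside 0.08 over all genes. Scaling the libraries to 18 epithelial markers moved the median of all genes to -1.09 and that of the members to -0.85 (0 higher and 27 of 54 lower). With that scaling 560 of all 16710 genes were higher and 9008 lower. Relative to the median of all genes, the median of the members was 0.18 with TMM and 0.25 with epithelial scaling, and the 6 higher members stood at 0.59 to 1.04 and at 0.58 to 1.08. Scaling moves all genes by nearly the same amount, so these distances were bound to stay similar and do not test the calls. With the label number as a term, the genotype effect comes from p57KO 1 and 2 against p57WT 1 alone. Only label number 607 holds both genotypes. The median of the members was then -0.28, beside 0.15 over all genes. DESeq2 called 7 members higher and 4 lower (38.3% of all genes called), and limma voom 4 higher and 5 lower (38.3% of all genes called). The authors' deposited table had 7 members higher and 3 lower at an adjusted p below 0.05, where 37.5% of all listed genes passed. For 4 members all p57KO libraries lay on the same side of the p57WT range, 2 above (11.5% of all genes) and 2 below (12.7% of all genes).

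**Figure D1:**
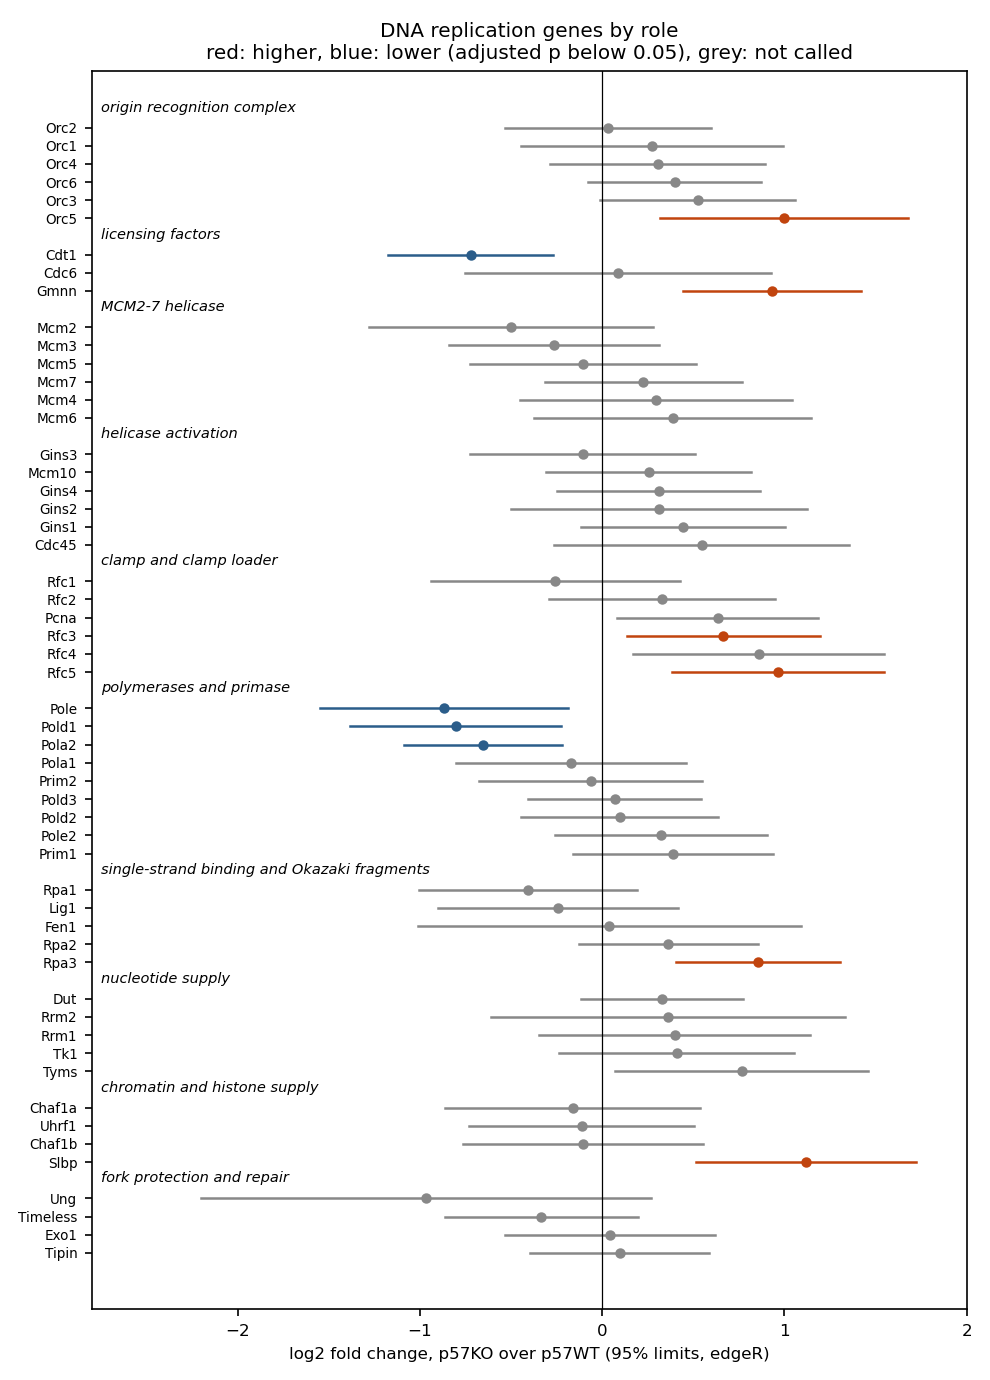
Log2 fold change of p57KO over p57WT for each of the 54 members, grouped by role, with points for edgeR estimates and bars for 95% limits (5 libraries per genotype). The 6 members called higher are red, the 4 called lower are blue and the 44 not called are grey. All 3 polymerase subunits called are lower, while 17.2% of all genes were lower. Scaling to epithelial markers moved the median of all genes from 0.08 to -1.09, and the red members moved below 0 with it.

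Of the 3 licensing factors, 1 was called higher and 1 lower. Gmnn (ENSMUSG00000006715, chr13:24751845-24761923, minus strand, GRCm38) encodes geminin, the inhibitor of CDT1. Gmnn was at 75.1, 61.1, 83.4, 115 and 63.2 CPM across p57KO 1 to 5, against 47.6, 48.8, 33.9, 39.2 and 39.2 CPM across p57WT 1 to 5. Every p57KO library lay above every p57WT library. Mean levels of 79.6 ± 21.9 and 41.8 ± 6.30 CPM (SD, n = 5 each) gave a log2 fold change of 0.93 (SE 0.23, edgeR adjusted p = 0.00751). Cdt1 (ENSMUSG00000006585, chr8:122568015-122573554, plus strand) encodes the loading factor that geminin binds. It was measured at 30.7, 27.5, 23.1, 25.7 and 34.3 CPM across p57KO 1 to 5, against 51.8, 34.0, 49.7, 53.2 and 44.0 CPM across p57WT 1 to 5. Only p57KO 5 and p57WT 2 overlapped. The means were 28.2 ± 4.38 and 46.6 ± 7.84 CPM, and Cdt1 fell by 0.72 on the log2 scale (SE 0.21, edgeR adjusted p = 0.0177). Without p57KO 3 the adjusted p was 0.0518 and without p57WT 4 it was 0.0513. Cdc6, the other loading factor, was not called, at 18.1 ± 10.3 CPM without and 17.0 ± 4.81 CPM with p57Kip2 (log2 fold change 0.09, 95% limits -0.75 to 0.93).

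The ratio of Gmnn to Cdt1 counts was taken within each library, where scaling cancels. It was 2.45, 2.22, 3.61, 4.49 and 1.84 across p57KO 1 to 5, against 0.919, 1.44, 0.681, 0.737 and 0.892 across p57WT 1 to 5. Every p57KO ratio lay above every p57WT ratio. The transcripts differ in length, so a ratio of counts is not a ratio of transcripts, and a length trend within a library does not cancel. With libraries adjusted for length and GC content, as described below, Gmnn and Cdt1 were at 0.42 and -0.62 in log2 fold change. The means were 2.92 ± 1.10 and 0.933 ± 0.298. The pair was chosen after its values were seen, so no test is given.

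In the origin recognition complex, Orc5 was called and the other 5 subunits were not. Orc5 (ENSMUSG00000029012, chr5:22486485-22550429, minus strand) encodes an ATP-binding subunit. Its values were 21.5, 58.0, 61.1, 82.1 and 35.1 CPM across p57KO 1 to 5, against 22.2, 31.7, 26.7, 24.2 and 24.4 CPM across p57WT 1 to 5. In 4 of the 5 p57KO libraries the level lay above all p57WT libraries, and in p57KO 1 it lay below them. The log2 fold change was 1.0 (SE 0.32, edgeR adjusted p = 0.0258), and the call was lost in 6 of the 10 fits that left out 1 library (p57KO 3 or 4, or p57WT 1, 3, 4 or 5), with adjusted p up to 0.0737. By limma voom it missed the threshold (0.86, adjusted p = 0.0606). Orc1 to Orc4 and Orc6 had log2 fold changes from 0.03 for Orc2 to 0.52 for Orc3, which had 95% limits of -0.01 to 1.06. Nif3l1 covers 29.8% of the exon bases of Orc2 on the opposite strand, and whether reads were counted by strand is not given in the sources used here.

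No subunit of the MCM2-7 helicase was called by edgeR, DESeq2 or limma voom, and 0 of 6 passed an unadjusted p of 0.05 in any of them. The 6 log2 fold changes ran from -0.50 for Mcm2 to 0.39 for Mcm6, with a median of 0.06. Behind that median the p57KO libraries split. Mcm6 was at 84.1, 81.9, 281, 294 and 173 CPM across p57KO 1 to 5, against 153, 158, 126, 137 and 126 CPM across p57WT 1 to 5. Mcm2 was at 21.8, 23.4, 75.4, 61.1 and 70.2 CPM across p57KO 1 to 5, against 55.1, 107, 60.5, 64.0 and 69.6 CPM across p57WT 1 to 5. In both genes p57KO 1 and 2 were the lowest of all 10 libraries. Summed over Mcm2 to Mcm7 the level was 417, 276, 794, 759 and 555 CPM across p57KO 1 to 5, against 562, 643, 482, 503 and 482 CPM across p57WT 1 to 5. The means, 560 ± 221 and 534 ± 69.2 CPM, lay close together while the p57KO libraries spanned a wider range than the p57WT libraries on both sides. Mcm7 was the exception among the 6: it was highest in p57KO 1, at 153 CPM, and its log2 fold change was 0.23.

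The helicase activators were likewise not called, and 0 of 6 had an unadjusted p below 0.05 by edgeR, DESeq2 or limma voom, with 5 of 6 log2 fold changes above 0 and a median of 0.31. Cdc45, the scaffold that joins MCM2-7 and GINS in the active helicase, was at 10.5, 19.5, 49.0, 49.7 and 33.3 CPM across p57KO 1 to 5, against 20.6, 30.6, 19.97, 17.1 and 22.6 CPM across p57WT 1 to 5. Its log2 fold change was 0.54 (SE 0.37, edgeR adjusted p = 0.266). Here p57KO 3, 4 and 5 stood above every p57WT library and p57KO 1 below every one. Gins2 had a similar order, at 7.83 CPM in p57KO 1 and 42.5 CPM in p57KO 4, with 67.3% of its exon bases shared with Gse1 on the other strand. Gins3 had the lowest fold change of the 6, -0.11 (95% limits -0.72 to 0.51).

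The clamp loader genes held the highest median of the 10 roles, 0.65 over Pcna and Rfc1 to Rfc5. Rfc5 (ENSMUSG00000029363, chr5:117378103-117389047, minus strand) and Rfc3 (ENSMUSG00000033970, chr5:151642756-151651242, minus strand) encode small subunits of the loader. Rfc5 was at 45.8, 65.0, 87.1, 101 and 62.5 CPM across p57KO 1 to 5, against 42.6, 51.0, 27.8, 37.4 and 26.3 CPM across p57WT 1 to 5. The only overlap was between p57KO 1 and p57WT 2. Its means were 72.3 ± 21.9 and 37.0 ± 10.3 CPM, with a log2 fold change of 0.96 (SE 0.27, edgeR adjusted p = 0.0144). Rfc3 was at 159.5, 90.1, 92.7, 128 and 70.2 CPM across p57KO 1 to 5, against 73.5, 81.6, 62.9, 67.2 and 55.5 CPM across p57WT 1 to 5. The highest library was p57KO 1 and the lowest p57KO library lay among the p57WT libraries. The log2 fold change was 0.67 (SE 0.24, edgeR adjusted p = 0.0476), and the call was lost in 7 of 10 fits without 1 library (p57KO 1, 3 or 4, or p57WT 1, 3, 4 or 5), with adjusted p up to 0.113. By limma voom Rfc3 missed the threshold too (0.61, adjusted p = 0.0616).

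Rfc4, another small subunit, missed the threshold with a log2 fold change of 0.86 (SE 0.32, edgeR adjusted p = 0.05003). It passed by DESeq2 (0.92, adjusted p = 0.0328) and in the authors' deposited table (adjusted p = 0.0366), and not by limma voom (adjusted p = 0.0925). Rfc1, the large subunit, had the only negative value of the group, -0.26 (95% limits -0.94 to 0.42). Pcna, the clamp itself, was at 113 ± 42.6 CPM without and 73.0 ± 9.89 CPM with p57Kip2 (log2 fold change 0.63, edgeR adjusted p = 0.0664). The pseudogene Pcna-ps2 had a mean normalized count of 567, so reads may be split between the copies and the level of Pcna is uncertain.

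Of the 9 polymerase and primase genes 3 were lower in p57KO and 0 higher by edgeR, DESeq2 and limma voom alike, also with 0 higher at an unadjusted p below 0.05. Over all genes tested 17.2% were lower and 19.3% higher by edgeR, and whether this role differs from that was not tested. Pola2 (ENSMUSG00000024833, chr19:5940542-5964202, minus strand) encodes the accessory subunit of polymerase alpha. Pola2 was at 37.7, 39.9, 51.3, 56.0 and 53.5 CPM across p57KO 1 to 5, against 64.0, 91.7, 70.8, 77.7 and 70.8 CPM across p57WT 1 to 5. All p57KO libraries lay below all p57WT libraries. The log2 fold change was -0.65 (SE 0.20, edgeR adjusted p = 0.0228), and without p57KO 2, p57WT 2 or p57WT 4 the adjusted p was 0.0616, 0.0521 and 0.0573. Pole (ENSMUSG00000007080, chr5:110286306-110337474, plus strand) encodes the catalytic subunit of polymerase epsilon, which copies the leading strand. Its values were 14.7, 6.18, 22.8, 22.1 and 20.8 CPM across p57KO 1 to 5, against 28.2, 34.5, 36.2, 31.7 and 27.4 CPM across p57WT 1 to 5. These groups did not overlap either, and p57KO 2 was far below the rest. The log2 fold change was -0.87 (SE 0.32, edgeR adjusted p = 0.0460). That call was lost in 9 of 10 fits without 1 library, all but the one without p57KO 3, with adjusted p up to 0.0974.

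Pold1 (ENSMUSG00000038644, chr7:44532746-44548849, minus strand), the catalytic subunit of polymerase delta, was at 16.2, 14.8, 22.8, 13.3 and 26.7 CPM across p57KO 1 to 5, against 33.0, 46.7, 32.6, 24.6 and 26.7 CPM across p57WT 1 to 5. Only p57KO 5 reached the p57WT range. Its log2 fold change was -0.81 (SE 0.27, edgeR adjusted p = 0.0321), and the call was lost in 5 of 10 fits without 1 library (p57KO 2 or 4, or p57WT 1, 2 or 3), with adjusted p up to 0.0855. The partner subunits gave other values. Pola1 was at -0.17 (95% limits -0.80 to 0.46), Pold2 at 0.09 (-0.45 to 0.64), Pold3 at 0.07 (-0.40 to 0.54) and Pole2 at 0.32 (-0.26 to 0.90) on the log2 fold scale. Prim1, the catalytic primase subunit, had the highest fold change of the role at 0.39 (-0.16 to 0.94) and Prim2, the large primase subunit, was at -0.06.

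Within each library, count ratios of subunits of the same enzyme were therefore set side by side, again for pairs chosen after their values were seen. The ratio of Prim1 to Pola2 was 1.35 to 2.29 in the p57KO and 0.766 to 0.950 in the p57WT libraries. The ratio of Pole2 to Pole was 0.554 to 1.27 in p57KO and 0.260 to 0.379 in p57WT. Neither ratio overlapped between genotypes, whereas the ratio of Pold2 to Pold1 did, at 1.95 to 4.15 and 1.24 to 2.17. The paired transcripts differ in length, and a length trend within a library does not cancel in such a ratio. With libraries adjusted for length and GC content, as described below, Pole2 and Pole were at -0.20 and -0.30 in log2 fold change. Prim1 and Pola2 were then at -0.22 and -0.94, and Pold2 and Pold1 at 0.14 and -0.22.

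**Figure D2:**
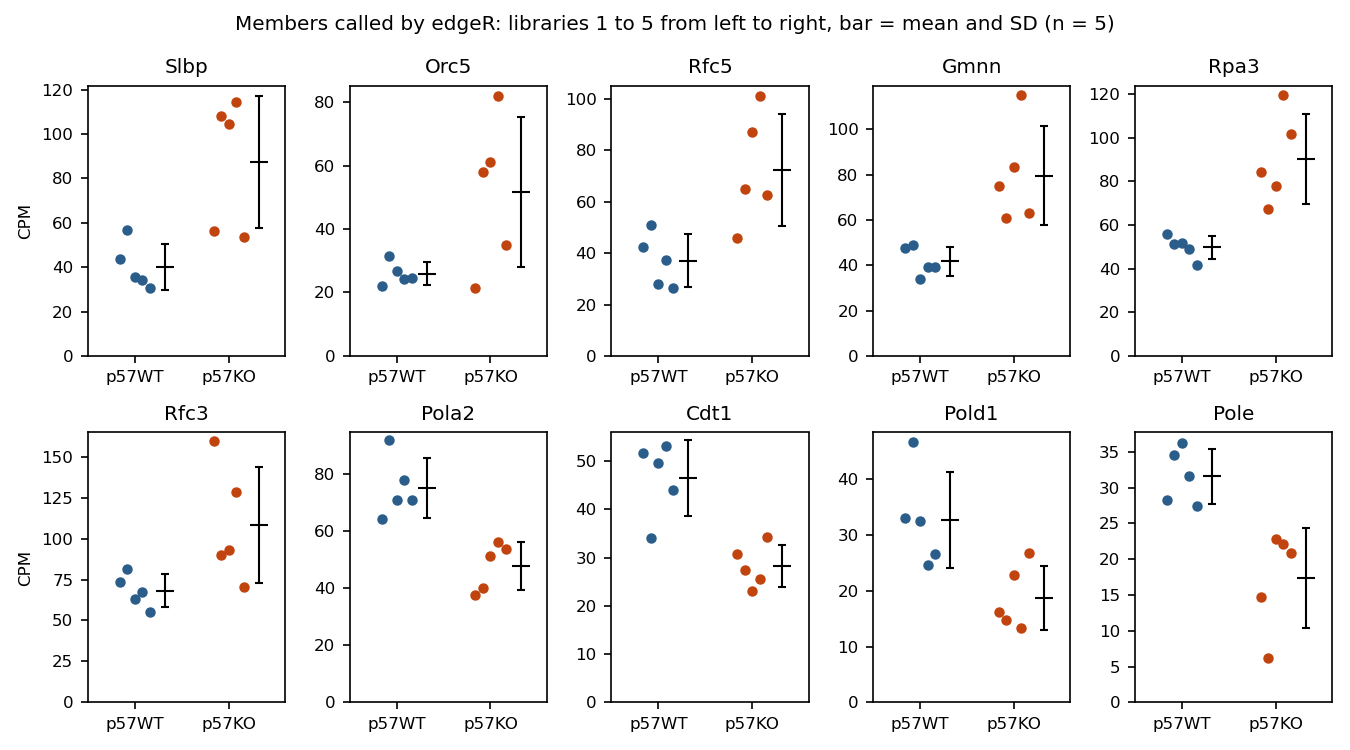
CPM (TMM-scaled) of the 10 members called by edgeR in each library, with dots for libraries 1 to 5 from left to right and bars for mean and SD (n = 5 per genotype). Gmnn and Rpa3 lie higher, and Pola2 and Pole lower, in all 5 p57KO than in all 5 p57WT libraries; the other 6 members overlap. With scaling to epithelial markers the median of all genes moved to -1.09, and the fold changes of the 6 higher members moved below 0 with it.

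Among single-strand binding and Okazaki fragment genes, Rpa3 was called. Rpa3 (ENSMUSG00000012483, chr6:8255936-8259173, minus strand) encodes the small subunit of replication protein A, the complex that coats unwound DNA. Rpa3 was at 84.1, 67.5, 77.6, 119.7 and 102 CPM across p57KO 1 to 5, against 55.7, 51.2, 51.8, 48.8 and 41.6 CPM across p57WT 1 to 5. The groups did not overlap. The means were 90.2 ± 20.7 and 49.8 ± 5.20 CPM, and the log2 fold change came to 0.86 (SE 0.21, edgeR adjusted p = 0.00767). Rpa1, the large subunit, gave the lowest value of the role, -0.41 (95% limits -1.0 to 0.19), and Rpa2, the middle subunit, 0.36 (-0.13 to 0.86). The count ratio of Rpa3 to Rpa1 was 0.927 to 2.57 in p57KO and 0.534 to 0.734 in p57WT, a pair also chosen after its values were seen. With the length and GC adjustment Rpa3 and Rpa1 were both at -0.12 in log2 fold change. Lig1, the ligase that seals Okazaki fragments, was at -0.24 (-0.90 to 0.42). Fen1, the flap nuclease, was at only 2.79 ± 1.61 and 2.71 ± 0.985 CPM. Genes on the other strand cover 84.2% of its exon bases, so its level is uncertain.

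Nucleotide supply genes were all above 0 in log2 fold change, from 0.33 for Dut to 0.76 for Tyms, and none was called by edgeR, DESeq2 or limma voom (1 at an unadjusted p below 0.05 by edgeR). Tyms, thymidylate synthase, was at 74.1, 81.6, 173, 224 and 99.3 CPM across p57KO 1 to 5, against 86.3, 106, 66.2, 63.6 and 61.8 CPM across p57WT 1 to 5. Its edgeR adjusted p was 0.0778, and 0.0314 without p57KO 1 or 0.0499 without p57KO 2. The pseudogene Tyms-ps had a mean normalized count of 31.9. Rrm1, the large subunit of ribonucleotide reductase, was at 77.7 and 64.9 CPM in p57KO 1 and 2, at 178 to 241 CPM in p57KO 3 to 5 and at 104 to 142 CPM in p57WT. For 4 of these 5 genes p57KO 1 and 2 both lay below p57KO 3, 4 and 5. With scaling to epithelial markers the fold changes of Tyms and Dut were -0.32 and -0.78, beside the median of -1.09 over all genes.

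Slbp was the member with the largest fold change. Slbp (ENSMUSG00000004642, chr5:33634952-33652574, minus strand) encodes the stem-loop binding protein needed to process and translate histone mRNA in S phase. Slbp was at 56.2, 108, 105, 114 and 53.5 CPM across p57KO 1 to 5, against 43.5, 56.8, 35.5, 34.3 and 30.8 CPM across p57WT 1 to 5. The libraries p57KO 2, 3 and 4 stood well above all others, while p57KO 1 and 5 lay just under p57WT 2. The means were 87.4 ± 29.9 and 40.2 ± 10.4 CPM, and the log2 fold change was 1.12 (SE 0.28, edgeR adjusted p = 0.00844). The chromatin assembly genes Chaf1a and Chaf1b and the hemimethylated DNA reader Uhrf1 were at -0.16, -0.10 and -0.11, none called, with 52.5% of the exon bases of Chaf1a shared with Ubxn6. In fork protection and repair, none of the 4 genes was called by edgeR or DESeq2 (0 at an unadjusted p below 0.05), and limma voom called Ung lower. Tipin and Timeless, which form the fork protection complex, were at 0.09 and -0.33. Exo1, a 5′ to 3′ exonuclease, was at 0.04. Ung, uracil DNA glycosylase, had the lowest fold change of all members, -0.97 (95% limits -2.20 to 0.27, edgeR adjusted p = 0.197). Its values of 9.89, 1.52, 3.82, 4.18 and 21.1 CPM in p57KO 1 to 5 spread widely against 8.22 to 22.2 CPM in p57WT, and without p57KO 5 the fold change was -1.69 (edgeR adjusted p = 0.0175).

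Of the 10 calls, 4 held when each library was left out in turn: Gmnn, Rpa3, Rfc5 and Slbp, with adjusted p up to 0.0255, 0.0247, 0.0434 and 0.0278. When the ribosomal RNA class was a term, Rpa3 alone of the 10 was called (log2 fold change 0.90, edgeR adjusted p = 0.0258). In that fit 17.7% of all genes were called, against 36.5% in the main fit. For the 44 members without a call the 95% limits lay inside -1 and 1 for 28, so a change of 2-fold is outside their limits in the main fit. For the other 16 it is not. These limits hold for TMM scaling only, and scaling to epithelial markers moved the median of the members to -0.85.

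**Figure D3:**
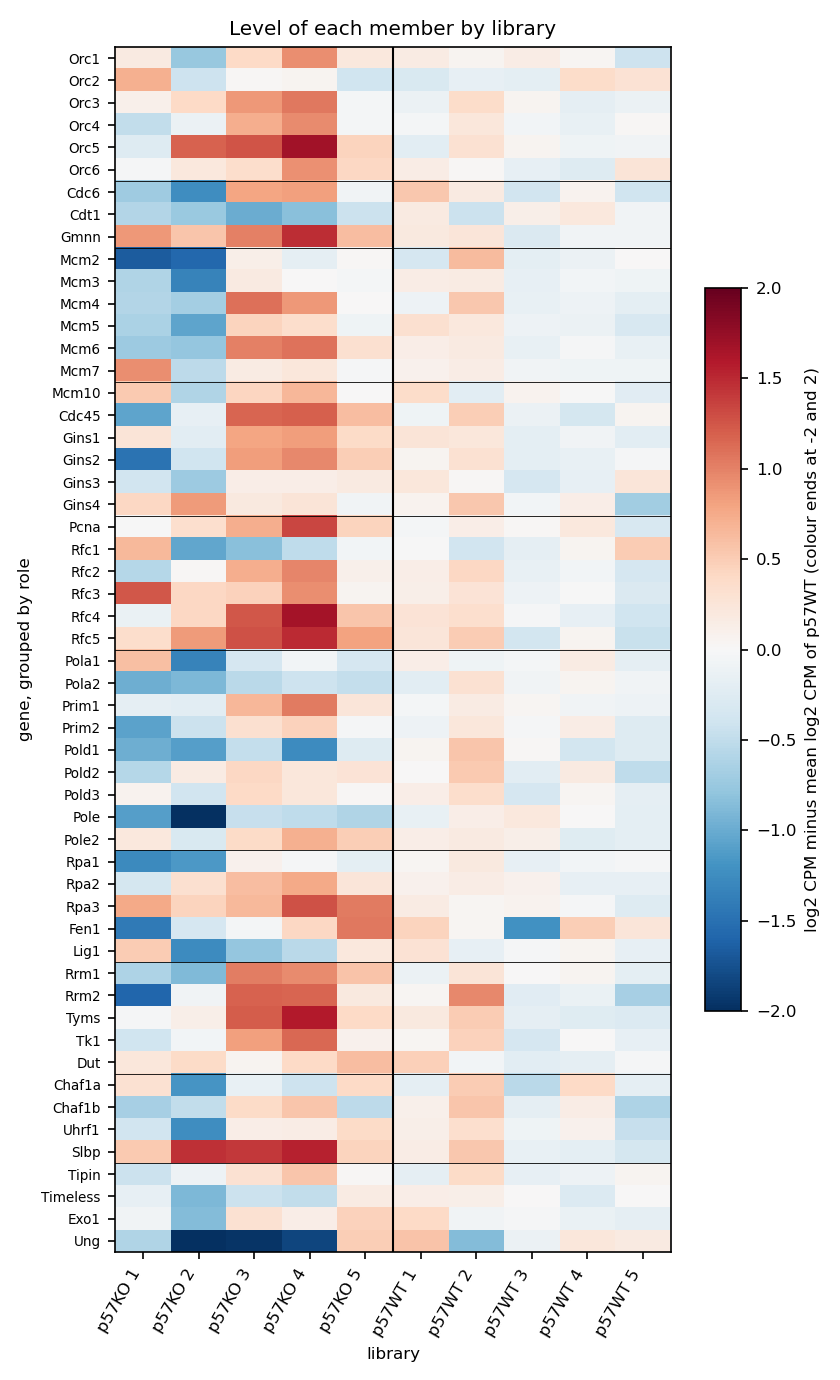
Log2 CPM of each of the 54 members (rows, grouped by role) in each library (columns) minus the mean log2 CPM of the 5 p57WT libraries, with the colour scale ending at -2 and 2. Averaged over the 54 members, the p57KO columns differ among themselves more than the p57WT columns. The averages are -0.25, -0.43, 0.37, 0.50 and 0.18 across p57KO 1 to 5, and 0.10, 0.21, -0.13, -0.02 and -0.16 across p57WT 1 to 5. Counts of members above the p57WT mean CPM, a different zero, do not show this. They are 19, 15, 42, 42 and 34 across p57KO 1 to 5, and 36, 44, 12, 21 and 10 across p57WT 1 to 5.

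The p57KO libraries were split by label number for many members. In p57KO 1 and 2, both labelled 607, 16 members (29.6%) lay below all p57WT libraries, against 21.7% of all genes tested. Above all p57WT libraries lay 3 members (5.56%), against 23.0% of all genes. In p57KO 3, 4 and 5, labelled 608, 16 members (29.6%) lay above all p57WT libraries, against 17.9% of all genes, and 2 (3.70%) below them, against 19.3%. The order within p57KO stood further from the background. For 31 of 54 members (57.4%) p57KO 1 and 2 both lay below p57KO 3, 4 and 5, against 18.5% of all genes. For 1 member (1.85%) both lay above, against 17.3% of all genes. An edgeR contrast of 608 over 607 within p57KO, added after the data were seen, called 7 members higher (13.0%, against 3.67% of all genes) and 0 lower (against 3.01%), and at an unadjusted p below 0.05 it gave 21 up and 0 down. They were Cdc6, Mcm2, Mcm6, Cdc45, Gins2, Rpa1 and Rrm1. The largest was Mcm2, with a log2 fold change of 1.61 (edgeR adjusted p = 0.0157), followed by Gins2 at 1.61, Rrm1 at 1.6 and Mcm6 at 1.59. Nothing of genotype enters that contrast.

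The median SD of log2 CPM over libraries was 0.59 in p57KO and 0.24 in p57WT for the members, and 0.55 and 0.41 for all genes. The spread was larger in p57KO for 50 of 54 members and for 71.4% of all genes. Replication genes thus sat in a narrower range than the median gene across the p57WT libraries, 1 labelled 607 and 4 labelled 740. Members and all genes were not matched for level, and the part of level in this difference was not tested. When p57KO 1 and 2 were left out, 21 members were higher (38.9%, against 20.6% of 17312 genes tested) and 1 lower (1.85%, against 19.1%). Those higher were Orc3 to Orc6, Gmnn, Mcm4, Mcm6, Cdc45, Gins1, Gins2, Pcna, Rfc2, Rfc4, Rfc5, Prim1, Rpa2, Rpa3, Rrm1, Tyms, Tk1 and Slbp, and the lower one was Cdt1. The fold change of Mcm6 was then 0.90 (edgeR adjusted p = 0.00909) and that of Cdc45 1.05 (edgeR adjusted p = 0.00577). The calls of Pola2, Pold1, Pole and Rfc3 were lost, with fold changes of -0.42, -0.60, -0.47 and 0.58. The summed levels of 5 of the 9 marker lists also separated p57KO 1 and 2 from p57KO 3 to 5. Those of neutrophils (634 and 4857 CPM, against 21.7 to 57.6 CPM in p57KO 3 to 5), leukocytes (425 and 3133 CPM, against 63.7 to 242 CPM) and epithelium (17322 and 17918 CPM, against 9356 to 13957 CPM) were higher in p57KO 1 and 2. Those of smooth muscle (4765 and 7309 CPM, against 23111 to 32334 CPM) and fibroblasts (128 and 227 CPM, against 799 to 1344 CPM) were lower there. Their part in the split was not tested.

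Mitosis genes were set beside the members because both belong to cycling cells. By edgeR, 23 of 30 mitosis genes were higher in p57KO and 0 lower, with a median log2 fold change of 1.03. All 30 estimates were above 0, an unadjusted p below 0.05 was reached by 25 with a higher and 0 with a lower level, and DESeq2 and limma voom also called 0 lower. Scaled to epithelial markers, 0 mitosis genes were higher, 1 was lower and the median was -0.06, beside -1.09 over all genes. Among the 23 higher without that scaling were Birc5, the survivin subunit of the chromosomal passenger complex (1.70, edgeR adjusted p = 0.00107), Cdca3 (1.61, edgeR adjusted p = 0.000595), the ubiquitin enzyme gene Ube2c (1.57, edgeR adjusted p = 0.000749) and the cyclin gene Ccnb2 (1.24, edgeR adjusted p = 0.00103). Summed over 54 members the level was 2532, 2236, 3825, 4282 and 3059 CPM across p57KO 1 to 5, against 2842, 3202, 2498, 2640.2 and 2433 CPM across p57WT 1 to 5. Summed over the mitosis genes it was 4070.2, 3127, 4693, 5118 and 4047 CPM and 2358, 2405, 2050.4, 2173 and 1702 CPM. The mitosis sums did not overlap between genotypes and the replication sums did. The ratio of the replication sum to the mitosis sum, in which scaling cancels, was 0.622, 0.715, 0.815, 0.837 and 0.756 across p57KO 1 to 5, against 1.21, 1.33, 1.218, 1.21 and 1.43 across p57WT 1 to 5. Every p57KO library, p57KO 1 and 2 included, lay below every p57WT library. The lists differ in their number and length of genes, so a ratio of 1 has no meaning of its own. The means were 0.749 ± 0.0857 and 1.28 ± 0.0984. The comparison was formed with these results known, so no test is given.

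**Figure D4:**
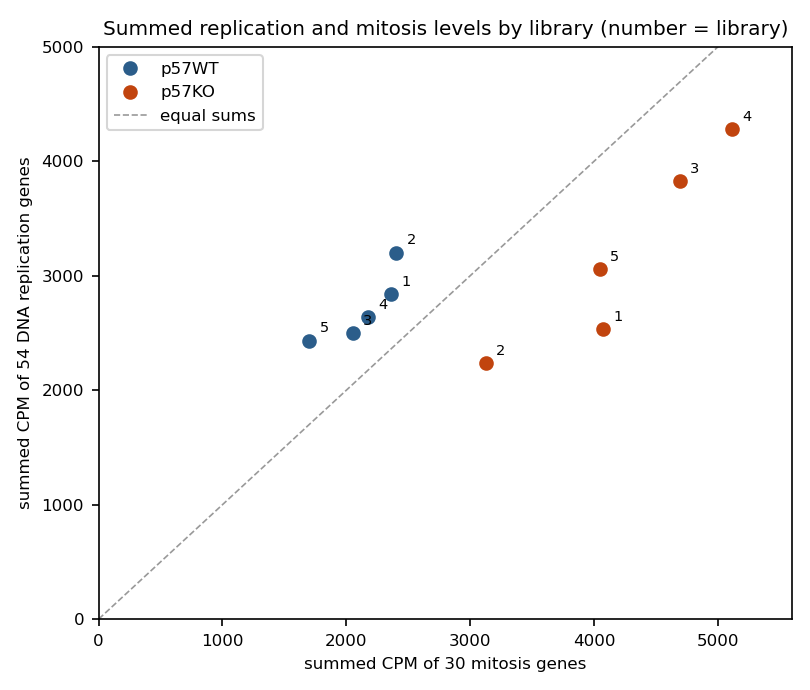
Summed CPM of the 54 DNA replication genes against summed CPM of 30 mitosis genes, 1 point per library, numbered by replicate, with a dashed line at equal sums. The p57WT libraries lie above the line, with ratios of 1.21 to 1.43, and the p57KO libraries below it, with ratios of 0.622 to 0.837.

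A further 43 replication genes outside the 54 gave 4 higher and 1 lower, with a median log2 fold change of 0.11. That is 11.6% called, against 36.5% of all genes (19.3% higher and 17.2% lower). The higher ones were Asf1b (1.32, edgeR adjusted p = 0.0128) and Tonsl (0.85, edgeR adjusted p = 0.0176), which handle histones at the fork, Pold4, the smallest polymerase delta subunit (1.24, edgeR adjusted p = 0.0121), and Rnaseh2b, a subunit of ribonuclease H2 (0.84, edgeR adjusted p = 0.00723). The lower one was the maintenance methyltransferase Dnmt1 (-0.65, edgeR adjusted p = 0.0491), chosen after its values were seen. Among 22 tested genes that control entry into S phase, 1 was higher and 5 were lower (27.3% called, also below the share of all genes). Cdkn1a, which encodes the related inhibitor p21, rose by 2.12 on the log2 scale (edgeR adjusted p = 0.00170). Besides Cdkn1c, Ccnd1 and Cdk6, a D-type cyclin and its kinase partner, fell, at -1.80 (edgeR adjusted p = 0.000833) and -1.31 (edgeR adjusted p = 0.00716). The other 2 lower genes were Ccnd3 and E2f1, at -0.97 and -1.05, both named after their values were seen.

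Across the 54 members, short transcripts had the higher fold changes. Over genes, Spearman's rho between log2 fold change and principal transcript length was -0.55 for the members and -0.30 for 16700 genes tested, and with GC content -0.45 and -0.07. These are correlations across genes of the same 10 libraries, and genes are not independent replicates. The higher members had principal transcripts of 670 bases (Rpa3), 1127 (Gmnn), 1317 (Rfc3), 1906 (Slbp), 2103 (Orc5) and 2796 (Rfc5). The lower ones had 2189 (Cdt1), 2421 (Pola2), 3454 (Pold1) and 7163 (Pole). When each library was adjusted for its own trend with length and GC content, an alternative added after the data were seen, 2 members were higher, Rfc5 (0.92) and Slbp (0.60), and 3 lower, Cdt1, Pola2 and Tipin. Over all genes 33.0% were called with that adjustment. The median of the members was then -0.00, Gmnn was at 0.42 (edgeR adjusted p = 0.125) and Rpa3 at -0.12 (edgeR adjusted p = 0.689). Orc5 was at 0.37 (edgeR adjusted p = 0.274) and Rfc3 at 0.0093 (edgeR adjusted p = 0.977). Of the polymerase calls, Pold1 and Pole were lost, at -0.22 (edgeR adjusted p = 0.498) and -0.30 (edgeR adjusted p = 0.456), and Pola2 was at -0.94 (edgeR adjusted p = 0.00244). Cdt1 was at -0.62 (edgeR adjusted p = 0.0394) and Tipin, not called before, at -0.50 (edgeR adjusted p = 0.0490). Of the 30 mitosis genes 24 were higher, with a median of 0.97, under the same adjustment.

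**Figure D5:**
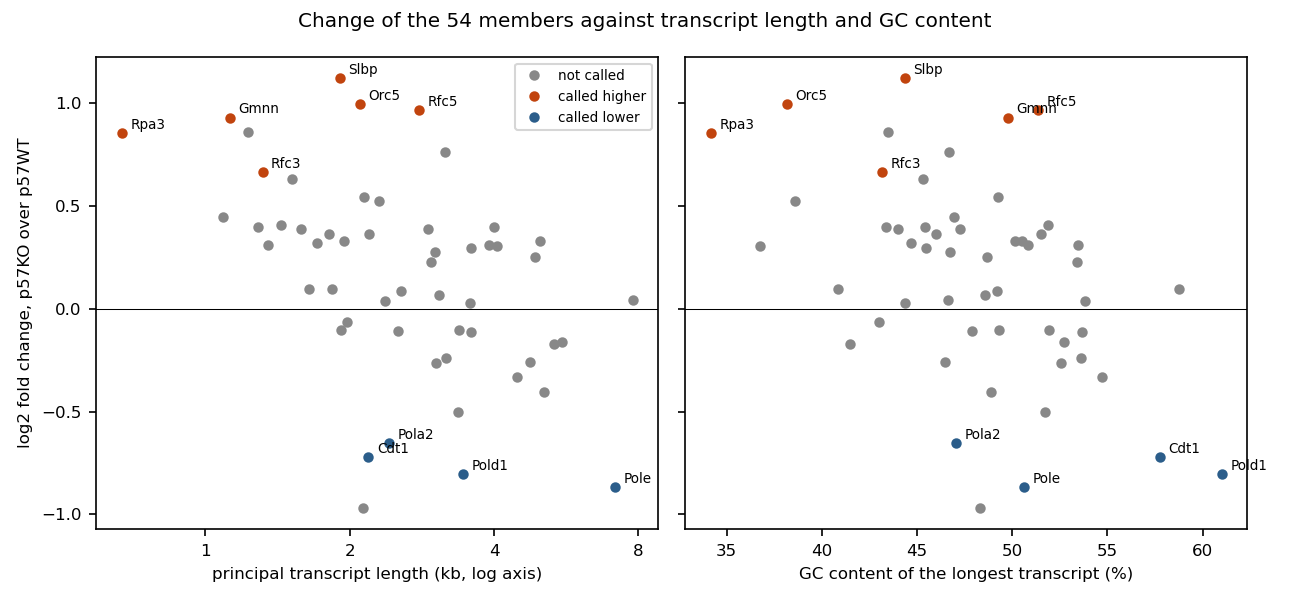
Log2 fold change of p57KO over p57WT of the 54 members against principal transcript length in kilobases (left, log axis) and GC content in percent (right), with called members in colour. Higher members lie toward short transcripts and Pole, the longest of the called ones at 7163 bases, is the lowest called; with the length and GC adjustment Rpa3 was at -0.12, and with scaling to epithelial markers the 6 higher members were below 0 while the median of all genes was -1.09.

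Levels between genes were compared per kilobase of principal transcript, as CPM per kilobase. In p57WT the highest was Rpa3, at 74.3 ± 7.76, followed by Rfc3 at 51.7 ± 7.57, Pcna at 48.1 ± 6.52, Mcm6 at 48.1 ± 5.18 and Tipin at 47.0 ± 8.25. The last 4 lie within their spread of each other. The order depends on the length used: per kilobase of all exons joined, Tipin was first at 46.3, Rpa3 next at 43.8 and Rfc3 in place 15 at 18.9. The lowest were Fen1 at 1.14 ± 0.415, Orc1 at 2.38 ± 0.354 and Exo1 at 2.71 ± 0.479. The MCM2-7 subunits, which join in equal number in the helicase, ranged from 15.4 ± 3.67 for Mcm4 to 48.1 ± 5.18 for Mcm6 in the same libraries, and over all exons joined from 10.2 for Mcm2 to 29.98 for Mcm6.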

How the data were processed

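Per gene and library, the authors deposited whole-number read counts (10 libraries) and signal values, which are those counts divided by a size factor for the library. Their table adds the authors' own comparison as log2 fold changes with standard errors (other values on the log2 scale), the Wald statistic, entered here as a score, and raw and adjusted p-values, per the file headers. Tools in the submitters' processing notes are STAR 2.6.1d, HTSeq 1.0, DESeq2 1.22.2, Cufflinks 2.2.1, Trim Galore and FastQC, with build GRCm38. Which step each served, and whether counting used strand, is not given in the sources used here. Genes listed had a mean normalized count of at least 3.00.

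Counts were tested with edgeR 4.0.16 (R 4.3.3), by the quasi-likelihood test on counts with TMM scaling, the tool's expression filter (3869 genes removed, 16710 tested), genotype as the only term and Benjamini-Hochberg adjustment across every gene tested. Adjusted p-values come from this fit unless another is named. The label contrast fitted 1 mean for each of the 4 genotype and label number groups, in which the lone p57WT library of 607 was assumed to vary like the others. CPM uses TMM-scaled library sizes. Library totals and a count of 3 as the floor give the depth, and intervals and floors cover counting error or library spread only, because the labels name no molecular identifiers and reads may then not be independent molecules. No 2 libraries of 1 genotype agreed within sampling noise (chi-square per degree of freedom 10.2 to 342). Coordinates, principal transcript lengths and GC content came from the GENCODE M21 annotation of GRCm38, and promoter windows from RefSeq on GRCm38.p6. DESeq2 1.42.0, limma voom (limma 3.58.1), no filter, scaling to 18 epithelial markers, terms for label number, ribosomal RNA class and replicate number, and leaving libraries out were the alternatives, with a length and GC offset added after the data were seen.

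The members, gene lists and tests were chosen with earlier results of these data known. Genes were named where they were called, were the highest or lowest fold change of a role, had libraries that did not overlap or the highest or lowest level per kilobase, plus up to 4 called genes of each other list with the smallest p. Other members are given by their values.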

Additional observations from a re-analysis of the deposited data

Results flagged for a closer look

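In groups of 5 libraries, a library stands apart here when its gap to the nearest other library is over 0.71 of the group's range. Of 108 such groups, 5 held such a library, about as many as the 1 in 20 that chance gives, and all 5 were in p57WT. Library p57WT 2 stood high for 2 helicase genes, Mcm2 at 107 CPM with the next library at 69.6 CPM, and Mcm4 at 78.6 CPM with the next at 50.6 CPM. Library p57WT 1 stood high for Dut, at 94.0 CPM with the next at 66.6 CPM, and for Exo1, at 27.7 CPM with the next at 20.6 CPM. Library p57WT 5 stood low for Orc1, at 5.33 CPM with the next at 7.33 CPM.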

How the results depend on the processing

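With DESeq2 all 36 named genes had the same direction and side of the threshold, and Rfc4, which is not among them, was also called. With limma voom Orc5 and Rfc3 were not called. Without the expression filter Pola2 and Pole were not called (edgeR adjusted p = 0.0516 and 0.0725), 2 members were lower, and 0 of the other replication genes. Scaled to epithelial markers, which moved the median of all genes to -1.09, 0 members were higher and 27 lower (median -0.85), 0 and 27 of the other replication genes, and 0 and 1 of the mitosis genes. Of all 16710 genes tested, 560 were then higher and 9008 lower. With the label number as a term, the genotype effect comes from p57KO 1 and 2 against p57WT 1 alone. The medians were then -0.28 for the members, -0.14 for the other replication genes and 0.70 for the mitosis genes, beside 0.15 over all genes. With the ribosomal RNA class, which left 17.7% of all genes called, 1 member was higher and 0 lower, 1 and 0 of the other replication genes, and 12 mitosis genes were higher. DESeq2 called 8 other replication genes higher. Without p57KO 1 and 2, where genotype and label number 608 cannot be told apart, 21 members were higher and 1 lower, and 8 other replication genes were higher. The length and GC offset gave 2 members higher, a median of -0.0016 and 3 other replication genes lower. Leaving out 1 library gave 4 to 8 members higher, 1 to 4 lower, a median of 0.11 to 0.35, 4 to 8 other replication genes higher and 0 to 2 lower, and 18 to 25 mitosis genes higher.

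The replicate block, a term for the replicate number, gave 5 members higher and 5 lower (median 0.15) and 5 other replication genes higher and 0 lower, and 17 mitosis genes higher. Same-numbered libraries correlated in their deviations at 0.228, 0.0625, -0.151, -0.150 and 0.171. In the labels, all pairs but the first shared only a replicate number. With the block, Orc2 was at -0.011 and Fen1 at -0.041, Rfc3 was no longer called (0.62, edgeR adjusted p = 0.0622) and Ung was (-1.45, edgeR adjusted p = 0.0251). Only the first pair, p57KO 1 and p57WT 1, which also share the label number 607, correlated best with its own number.

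Signs that turned were these, in log2 fold change. Scaled to epithelial markers: Orc2 -1.21, Orc5 -0.14, Gmnn -0.20, Mcm6 -0.67, Cdc45 -0.55, Rfc3 -0.52, Rfc5 -0.12, Prim1 -0.72, Rpa3 -0.25, Fen1 -0.99, Tyms -0.32, Dut -0.78, Slbp -0.0095, Tipin -1.06, Rnaseh2b -0.27, Pold4 -0.020 and Tonsl -0.31. With the label number (p57KO 1 and 2 against p57WT 1 alone): Mcm6 -0.88, Cdc45 -0.45, Rfc1 0.042, Prim1 -0.15, Fen1 -1.19, Tyms -0.15, Dut -0.16 and Tipin -0.076. With the ribosomal RNA class: Orc2 -0.076 and Tipin -0.067. With limma voom: Orc2 -0.0017 and Fen1 -0.057. Without p57KO 1 and 2: Orc2 -0.054, Mcm2 0.013, Gins3 0.19 and Rpa1 0.017. With the length and GC offset: Orc2 -0.087, Prim1 -0.22, Rpa3 -0.12, Chaf1a 0.27 and Tipin -0.50. Leaving out 1 library gave ranges that crossed 0 for Orc2 (-0.18 to 0.14), Gins3 (-0.18 to 0.043), Fen1 (-0.28 to 0.26), Chaf1a (-0.31 to 0.026) and Tipin (-0.030 to 0.21). The cause was not tested. Depth limits Fen1 and Orc1 most, the members with the lowest mean CPM. Of called genes, 52.8% were higher over all genes tested, 5.85% with epithelial scaling and 40.8% with the ribosomal RNA class.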
